A study of Mus musculus and Rattus norvegicus with 37 samples.

Results

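The genes described here are the cytochrome P450 genes of families 1 to 3, chosen as every entry whose gene name begins with Cyp, a family number from 1 to 3, a subfamily letter and a digit, and whose mean normalized count was at least 10 in the table of a comparison. Each mouse table listed 72 such entries, of which 51 in the WT/Floxed table and 49 in the L-Sirt1 KO table reached that mean, and all of these were tested among 15811 and 15885 genes. Each rat table listed 37 entries, 25 of which reached it, and 23 were tested among 8633 and 8405 genes because 2 entries carried the same name, Cyp3a9. The 49 genes of the L-Sirt1 KO table were all among the 51 of the WT/Floxed table, and Cyp2d34 and Cyp2d12 were the 2 that fell under the minimum there, at means of 9.24 and 8.56.

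RNA-seq was made from 37 livers, 21 of mice and 16 of rats. The mice were female C57BL/6J and received 1 subcutaneous dose of saline or of LNA29, a pair of locked nucleic acid inhibitors against the miR-29 family at 20 mg/kg each, and livers were taken in the fed state on day 7. The WT/Floxed group pooled WT mice of 9 to 11 weeks with mice of 15 to 20 weeks that carry a floxed Sirt1 allele, and held 8 LNA29-treated mice (4 WT and 4 floxed) and 5 saline-treated mice (3 WT and 2 floxed). The authors had excluded 1 further floxed saline library. The animals labelled SIRT1KO, called L-Sirt1 KO below, were littermates of the floxed mice with a liver-specific deletion of Sirt1, 4 with LNA29 and 4 with saline. The rats were male Zucker rats on chow. Zucker Fatty rats (ZFR), which carry the fa mutation of the leptin receptor on both alleles, were compared with Zucker Lean rats (ZLR) at 5.5 months, 4 of each. In the other rat arm, ZFR of 3 months were injected every day for 1 week with BT2, an inhibitor of the kinase of the branched-chain ketoacid dehydrogenase complex, at 20 mg/kg, or with its vehicle dimethylsulfoxide, 4 of each.

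Cytochrome P450 enzymes are heme proteins of the endoplasmic reticulum that insert an oxygen atom into a substrate, with electrons passed on by P450 oxidoreductase (Por) and cytochrome b5. Families 1 to 3 carry most of the oxidation of drugs, steroids and other foreign or endogenous lipids in the liver, and many members are induced through the receptors AhR (family 1), CAR (Cyp2b) and PXR (Cyp3a). In rodents a number of them are sex-biased, because males secrete growth hormone in pulses and females almost continuously, and the liver reads this pattern through STAT5.

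LNA29 binds miRNAs that share the seed AGCACCA, shown in capitals in the 3 mature mouse sequences below. The full match to these letters was the only kind of target site searched for, and shorter or other sites were not. miR-29a is encoded on mouse chromosome 6, miR-29c on chromosome 1, and miR-29b on both (RefSeq, GRCm38.p6).
mmu-miR-29a-3p: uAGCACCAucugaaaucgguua
mmu-miR-29b-3p: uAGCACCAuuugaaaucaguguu
mmu-miR-29c-3p: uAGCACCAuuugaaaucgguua

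The match to this seed, TGGTGCT, was present in the annotated 3′ UTR of 3 of the 47 mouse members that have one (6.38%), against 13.8% of 21020 mouse genes. UTR length was not taken into account in these shares. These 3 sites, each with its flanks and with the match in capitals, were those of Cyp2a12, Cyp2c38 and Cyp3a16.
Cyp2a12: agagcctgaagTGGTGCTagaaggaaggt
Cyp2c38: caagacagtccTGGTGCTtgctcaatacc
Cyp3a16: tcaagatgaaaTGGTGCTtaactgattga

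In WT/Floxed mice the log2 difference between LNA29 and saline was -0.08 for Cyp2a12 (adjusted p = 0.79), 0.41 for Cyp2c38 (adjusted p = 0.363) and -1.65 for Cyp3a16 (adjusted p = 0.542), none of which was called. In L-Sirt1 KO mice the 3 differences were 0.18, -0.14 and 3.29 (adjusted p = 0.624, 0.695 and 0.3). The 7 members called in all WT/Floxed mice held no match in an annotated 3′ UTR, and 1 of them, the pseudogene Cyp2d41-ps, has no such UTR. Cyp3a16 was called in the floxed mice alone and in their comparison with L-Sirt1 KO mice, given below.

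Of the 51 mouse members 48 are protein-coding and 3 are pseudogenes, and they lie in clusters. Chromosome 19 holds 13 members (the Cyp2c genes), chromosome 7 holds 12, chromosome 15 holds 10 (the Cyp2d genes) and chromosome 5 holds 9 (the Cyp3a genes). Within the Cyp3a genes, 8 lie between positions 145436309 and 146113287 of chromosome 5 (GRCm38), and all of these but Cyp3a59 are on the minus strand. The promoters of the neighbouring members whose values are set side by side below are shown here as the 250 bases before each gene start, read on the minus strand of GRCm38.p6 (RefSeq), with TGAACT, a half-site letter pattern of nuclear receptors, in capitals where it occurs.
Cyp3a16 (chr5:145469724-145469973): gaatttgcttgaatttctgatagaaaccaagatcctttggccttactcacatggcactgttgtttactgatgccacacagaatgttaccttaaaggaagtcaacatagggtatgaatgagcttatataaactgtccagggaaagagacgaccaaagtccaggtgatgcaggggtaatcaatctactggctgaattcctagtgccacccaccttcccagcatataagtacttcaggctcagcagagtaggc
Cyp3a41a (chr5:145720137-145720386): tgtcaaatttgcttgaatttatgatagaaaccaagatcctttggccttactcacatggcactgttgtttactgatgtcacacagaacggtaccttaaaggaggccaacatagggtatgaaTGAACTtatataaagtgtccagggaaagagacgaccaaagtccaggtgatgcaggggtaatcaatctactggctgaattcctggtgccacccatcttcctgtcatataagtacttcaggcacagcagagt
Cyp3a44 (chr5:145805875-145806124): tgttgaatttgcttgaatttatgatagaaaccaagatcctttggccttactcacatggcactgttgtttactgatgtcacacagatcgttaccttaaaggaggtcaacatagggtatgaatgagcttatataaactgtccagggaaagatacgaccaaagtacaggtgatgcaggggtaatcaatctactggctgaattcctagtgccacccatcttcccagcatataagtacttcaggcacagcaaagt
Cyp3a11 (chr5:145879855-145880104): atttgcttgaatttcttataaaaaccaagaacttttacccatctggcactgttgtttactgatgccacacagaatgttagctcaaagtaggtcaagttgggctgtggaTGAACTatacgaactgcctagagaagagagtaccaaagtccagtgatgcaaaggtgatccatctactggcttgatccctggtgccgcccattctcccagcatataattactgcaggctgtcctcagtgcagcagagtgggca

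Aligned over these windows, the promoter of Cyp3a41a was 99.6% identical to that of Cyp3a41b, 94.4% to that of Cyp3a44 and 91.3% to that of Cyp3a16, and 72.9% to that of Cyp3a11. Gene starts here are those of RefSeq, and the GENCODE start of Cyp3a11, at 145879964, lies inside its window. TGAACT began 130 bases before the start of Cyp3a41a and Cyp3a41b and 142 bases before that of Cyp3a11, and did not occur in the windows of Cyp3a16 and Cyp3a44. Counting both strands, it was present in 6 of the 41 members with a promoter sequence (14.6%) and in 11.9% of 27025 mouse promoters of this length. The STAT5 pattern TTCNNNGAA was present in 0 of the 41 members and in 7.18% of all promoters, and TATAAA in 23 of the 41 members (56.1%) and 13% of all promoters.

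The same near-identity limits how reads can be divided between neighbours. Of the 100-base windows of their exons, 90.8% for Cyp3a41a and 88.2% for Cyp3a41b also occur in another annotated gene of these families. The split of reads between these 2 genes is therefore uncertain. Their sum is given beside them for LNA29 against saline in all WT/Floxed mice and in L-Sirt1 KO mice, but not for other fits. In all, 32 of the 51 members share at least 1 window and 10 share over 10%, among them Cyp2c67 (23.7%), Cyp2c68 (19.8%), Cyp2c40 (34.4%) and Cyp2c69 (35.4%).

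Values below are normalized counts, that is Salmon estimates divided by DESeq2 factors, with each of the 4 tables normalized on its own. Depth was estimated at 42.6 to 78 M reads per mouse library and at 0.188 to 58.5 M reads per rat library, with 12 of the 16 rat libraries under 5 M and 3 under 0.2 M (ZLR replicates 3 and 4 and vehicle replicate 4), where 1 read was worth over 10 normalized counts. Depth was unequal within both rat comparisons. Differences are log2 of the normalized count plus 1, tested with limma across all genes of a table. Sirt1 itself was counted at 535 to 617 in the libraries labelled L-Sirt1 KO and at 492.7 to 699.1 in those of WT/Floxed mice, so the deletion was not visible in counts per gene, which do not separate exons, and the genotype is used as labelled. Alb, the main product of hepatocytes, was at 3288920 or more normalized counts in every mouse library and at 145704 or more in every ZFR and ZLR library. In bulk liver, fewer cells of a type and less RNA per cell cannot be told apart.

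In the saline-treated WT/Floxed mice the members took up 2.47% ± 0.189 (SD, n = 5) of all normalized counts, and per kilobase of exon their levels were dominated by a few genes. Cyp2e1, which oxidizes ethanol and other small molecules, accounted for 24.3% of the members' summed level per kilobase, and the first 5 (Cyp2e1, Cyp2c69, Cyp3a41a, Cyp2c37 and Cyp3a11) for 44.9%. The length used was that of all annotated exons of a gene together, 5093 bases for Cyp3a11 and 2060 for Cyp3a41a, so the order depends on the annotation. The share of all counts was 2.6% ± 0.221 (SD, n = 8) in WT/Floxed mice given LNA29. In L-Sirt1 KO mice it ran from 2.05% to 2.18% after LNA29 and from 1.9% to 2.16% after saline, so it overlapped between treatments in both genotypes. In rats the share was 1.08% to 1.14% in ZFR and 1.5% to 1.86% in ZLR, which did not overlap.

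The first comparison asked how the liver of WT/Floxed mice responds to miR-29 inhibition. Among the P450 genes the response was divided. Cyp2d9, Cyp2d41-ps, Cyp2c67, Cyp2c68 and Cyp3a11 were higher with LNA29, by 1.25-fold to 2.11-fold, while Cyp2g1 and Cyp3a44 were lower, by 4.13-fold and 3.09-fold. A gene was called in mice when its p was under 0.05, its adjusted p under 0.2, its mean above 50 and its fold change above 1.2. These 4 criteria were met by 5 of 51 members in the higher direction and 2 in the lower, where 2.42% and 1.93% of all tested genes met them. A p under 0.05 was reached by 18 members (35.3%, 9 higher and 9 lower) against 13.3% of all genes, and the groups did not overlap for 6 members (11.8%) against 1.51%. The median difference over the members was -0.07 and that over all genes was 0.00.

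Cyp2g1, a P450 best known from olfactory tissue that is also transcribed in liver, had the largest called fall. Its counts in the 8 LNA29-treated mice ran from 46.8 over a median of 76.4 to 182.7, and those in the 5 saline-treated mice were 495.9, 335.8, 390.3, 426.3 and 216.0. Every LNA29-treated mouse lay below every saline-treated one, and the log2 difference was -2.05 (SE 0.33, adjusted p = 0.00632 by limma). It remained called whichever of the 13 mice was dropped, and the adjusted p then reached 0.0285 at most.

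Cyp3a44, a female-predominant member of the steroid- and drug-oxidizing Cyp3a group, was the other called fall. Its counts ran from 354.7 over a median of 1199.8 to 1889.97 with LNA29, against 3651, 3226, 2956, 2765 and 5026 with saline. The groups did not overlap, with a log2 difference of -1.63 (SE 0.32, adjusted p = 0.0214). Its neighbour Cyp3a11, the PXR target that is the main drug-metabolizing Cyp3a of mouse liver, went the other way. Cyp3a11 counts ran from 180364 over 207037 to 242453 with LNA29, and were 147635, 172471, 148927, 173366 and 175516 with saline. They did not overlap either, and the difference was 0.36 (SE 0.08, adjusted p = 0.0478).

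Over the pooled mice, other Cyp3a members were mostly lower with LNA29, but with a spread between mice that left them uncalled. For Cyp3a16, Cyp3a41b and Cyp3a63-ps the fall was not seen in WT mice alone, as given below. Of the 9 Cyp3a members, 7 had a difference below 0, with a median of -1.34, and 5 had a p under 0.05. Cyp3a41a, a female-predominant gene and the third most abundant member per kilobase, ran from 312.0 over 20601 to 75479 with LNA29 and from 53351 over 64914 to 95490.5 with saline, a difference of -2.66 (95% interval -4.98 to -0.34, adjusted p = 0.295). Cyp3a41b differed by -1.99 (adjusted p = 0.465), Cyp3a16 by -1.65 (adjusted p = 0.542) and the pseudogene Cyp3a63-ps by -1.34 (adjusted p = 0.464). The sum of Cyp3a41a and Cyp3a41b, of which Cyp3a41a made up 89.4% to 99.1% in every WT/Floxed mouse, differed by -2.64. Cyp3a13 was lower by -0.26 with groups that did not overlap (adjusted p = 0.0498) but its fold change was under the limit of 1.2, and Cyp3a25 and Cyp3a59 differed by -0.25 and 0.03 (adjusted p = 0.257 and 0.966).

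**Figure D1:**
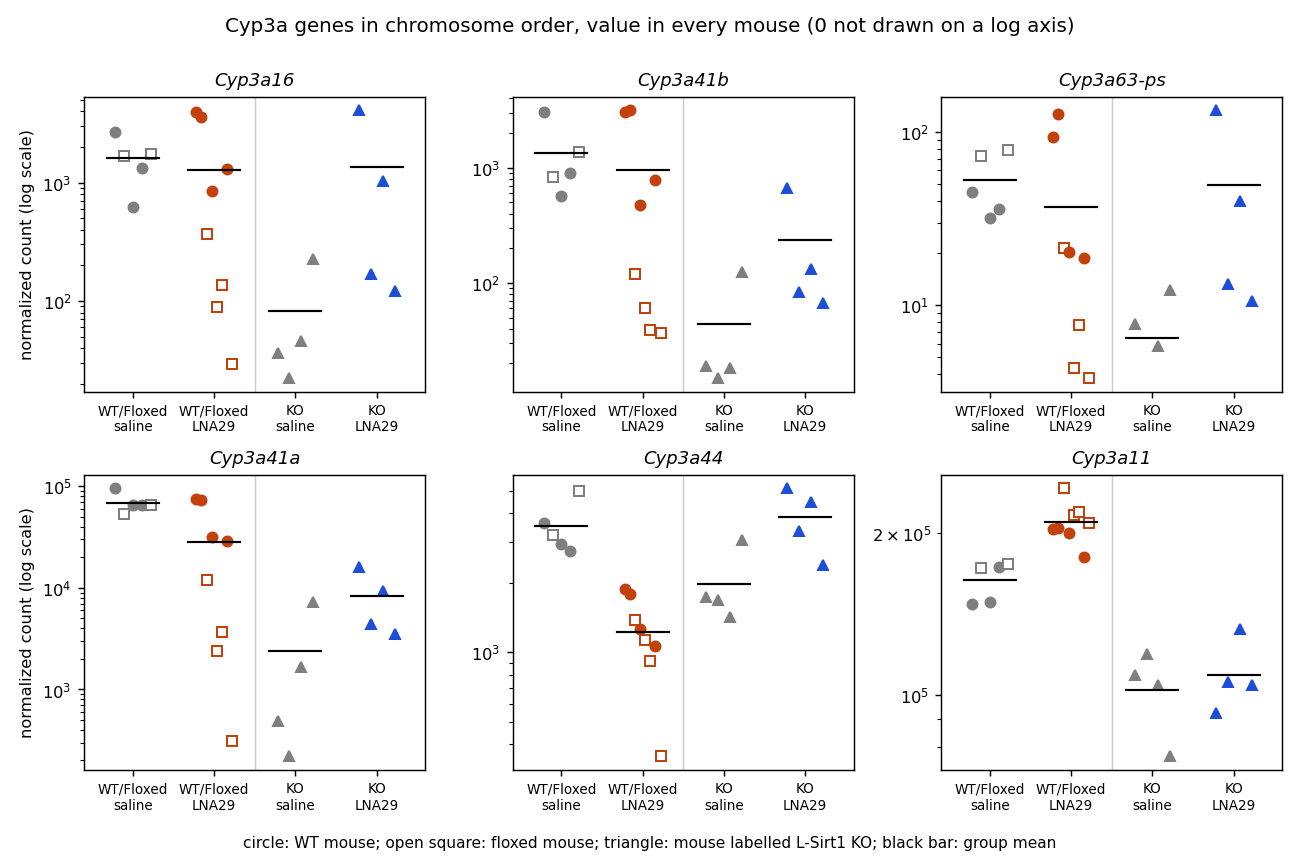
Normalized counts (log axis) of 6 Cyp3a genes, drawn in the order in which they lie on chromosome 5, in the 4 mouse groups. Each point is 1 mouse (circle WT, open square floxed, triangle L-Sirt1 KO), black bars are group means and a count of 0 is not drawn. With LNA29 the 4 floxed mice sit at 312 to 11925 for Cyp3a41a and the 4 WT mice at 29276 to 75479, while Cyp3a11 lies above its saline values in all 8.

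In the plot of the Cyp3a genes, the LNA29-treated WT and floxed mice did not overlap for Cyp3a41a, Cyp3a41b, Cyp3a16 and Cyp3a11, with the floxed mice lower for the first 3 and higher for Cyp3a11, and overlapped for Cyp3a44 and Cyp3a63-ps. For Cyp3a41a the LNA29-treated WT mice had 75479, 72929, 31812 and 29276 normalized counts and the LNA29-treated floxed mice 11925, 2375, 3677 and 312.0. The saline-treated mice had 95490.5, 64914 and 65224 (WT) and 53351 and 64868 (floxed). For this gene all floxed mice lay below all WT mice in both arms, with LNA29 at most 11925 against at least 29276, and with saline at most 64868 against at least 64914. In a fit of the 6 floxed mice alone, Cyp3a41a differed by -4.62 (adjusted p = 0.16), Cyp3a41b by -4.21 (adjusted p = 0.0347), Cyp3a16 by -3.97 (adjusted p = 0.118) and Cyp3a44 by -2.25 (adjusted p = 0.127), and 7 members were called lower and 5 higher. In a fit of the 7 WT mice alone 3 members were called, Cyp2g1 (-1.91, adjusted p = 0.128) and Cyp3a44 (-1.08, adjusted p = 0.152) lower and Cyp2c67 higher (0.46, adjusted p = 0.168). Among the uncalled members, Cyp3a16, Cyp3a63-ps and Cyp3a41b differed by 0.59, 0.31 and 0.24 in WT mice, and Cyp3a41a by -0.64. The difference between the responses of floxed and WT mice, tested as an interaction chosen after the data were seen, was -3.99 for Cyp3a41a, -4.45 for Cyp3a41b and -4.57 for Cyp3a16, each with an adjusted p of 0.525. An adjusted p under 0.2 was reached by 0 of 51 members and by 0.00632% of all genes, and an unadjusted p under 0.05 by 7 members. The share of all genes was not computed for that unadjusted count, nor for the calls in floxed or WT mice alone. Nor was it computed for genes without overlap between LNA29-treated WT and floxed mice. These counts therefore cannot be read as particular to the members. WT and floxed mice also differed in age, and the LNA experiments were run at 2 institutions without the labels saying which mice came from which, so background, age and possibly site cannot be told apart.

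The Cyp2d and Cyp2c genes gave the largest called rises. Cyp2d9, a male-predominant steroid 16-alpha-hydroxylase, was at 3898, 3255, 5131, 3195, 4446, 4808, 4892 and 5176 normalized counts in LNA29-treated mice and at 2424, 2070.5, 2526, 2823 and 2407 in saline-treated mice. The groups did not overlap, with a difference of 0.81 (SE 0.13, adjusted p = 0.00632). The pseudogene Cyp2d41-ps rose by 1.08 (SE 0.23, adjusted p = 0.0343) from a low level, 35.2 ± 10.4 (SD, n = 5) to 75.7 ± 20.6 (SD, n = 8), with overlap. Cyp2d10 differed by 0.26 (adjusted p = 0.196) with a fold change under the limit.

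Cyp2c67, 1 of the tandem Cyp2c genes on chromosome 19, rose by 0.50 (SE 0.09, adjusted p = 0.0182). Its counts were 14035 to 18853 with LNA29 and 9510 to 13336 with saline, without overlap. Cyp2c68 rose by 0.32 (adjusted p = 0.087) with overlap, and was the only called member to lose its call when 1 mouse was left out (adjusted p = 0.202 without saline replicate 3). Of the 13 Cyp2c members 9 had a difference above 0, and 5 had a p under 0.05, all of them higher, including Cyp2c37 (0.40, adjusted p = 0.279), Cyp2c38 and Cyp2c40 (0.19, adjusted p = 0.314).

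The count of calls rose when either of 2 LNA29-treated WT mice was left out. Without LNA29 replicate 1, which had the highest Cyp3a41a count of its group, 9 members were called lower, and without LNA29 replicate 4, 8 were called higher. Calls over all genes were not counted in these fits. In each of the 3 flow cells of the mouse libraries all 7 called members had the same sign as in the whole table. So had 43, 41 and 40 of all 51 members. The flow cells are parts of the same libraries, and groups without overlap must keep their sign, so this is not separate evidence.

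**Figure D2:**
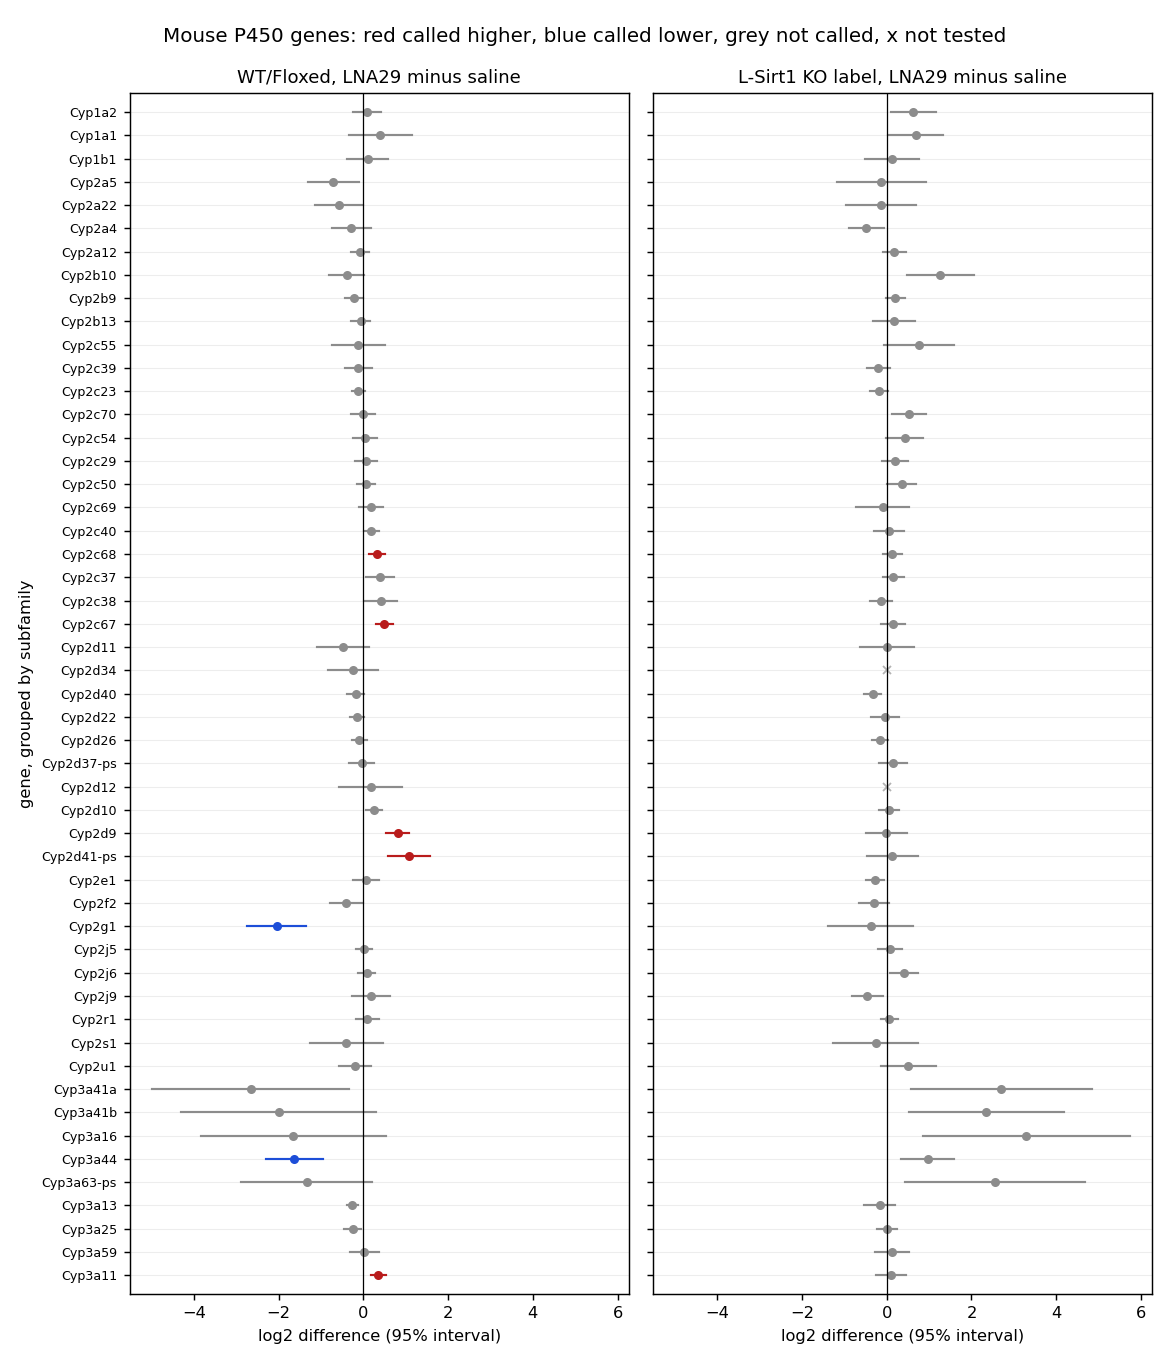
Log2 difference of the normalized count between LNA29 and saline for each member, in WT/Floxed mice (8 against 5) and L-Sirt1 KO mice (4 against 4), with its 95% interval from limma. Red members were called higher, blue ones called lower, grey ones not called, and a cross marks a member under the minimum mean. In WT/Floxed mice 5 members are red and 2 blue, and in L-Sirt1 KO mice 0 are coloured.

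Apart from Cyp3a11, no member known as a readout of a receptor was called. Cyp1a2, an AhR target and caffeine-oxidizing enzyme, differed by 0.09 (95% interval -0.25 to 0.42) and Cyp1a1 by 0.40 (-0.34 to 1.15). The CAR target Cyp2b10 differed by -0.39 (-0.81 to 0.03), and the female-predominant Cyp2b9 and Cyp2b13 by -0.22 (adjusted p = 0.351) and -0.07 (adjusted p = 0.855). Cyp2e1 differed by 0.07 (-0.24 to 0.38), Cyp2c29 by 0.07 (-0.18 to 0.32) and the vitamin D 25-hydroxylase Cyp2r1 by 0.09 (-0.18 to 0.37). Cyp2a5 (coumarin 7-hydroxylase) and its relative Cyp2a4 (testosterone 15-alpha-hydroxylase) differed by -0.71 (adjusted p = 0.285) and -0.28 (adjusted p = 0.636), and Cyp2f2 by -0.40 (adjusted p = 0.371).

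**Figure D3:**
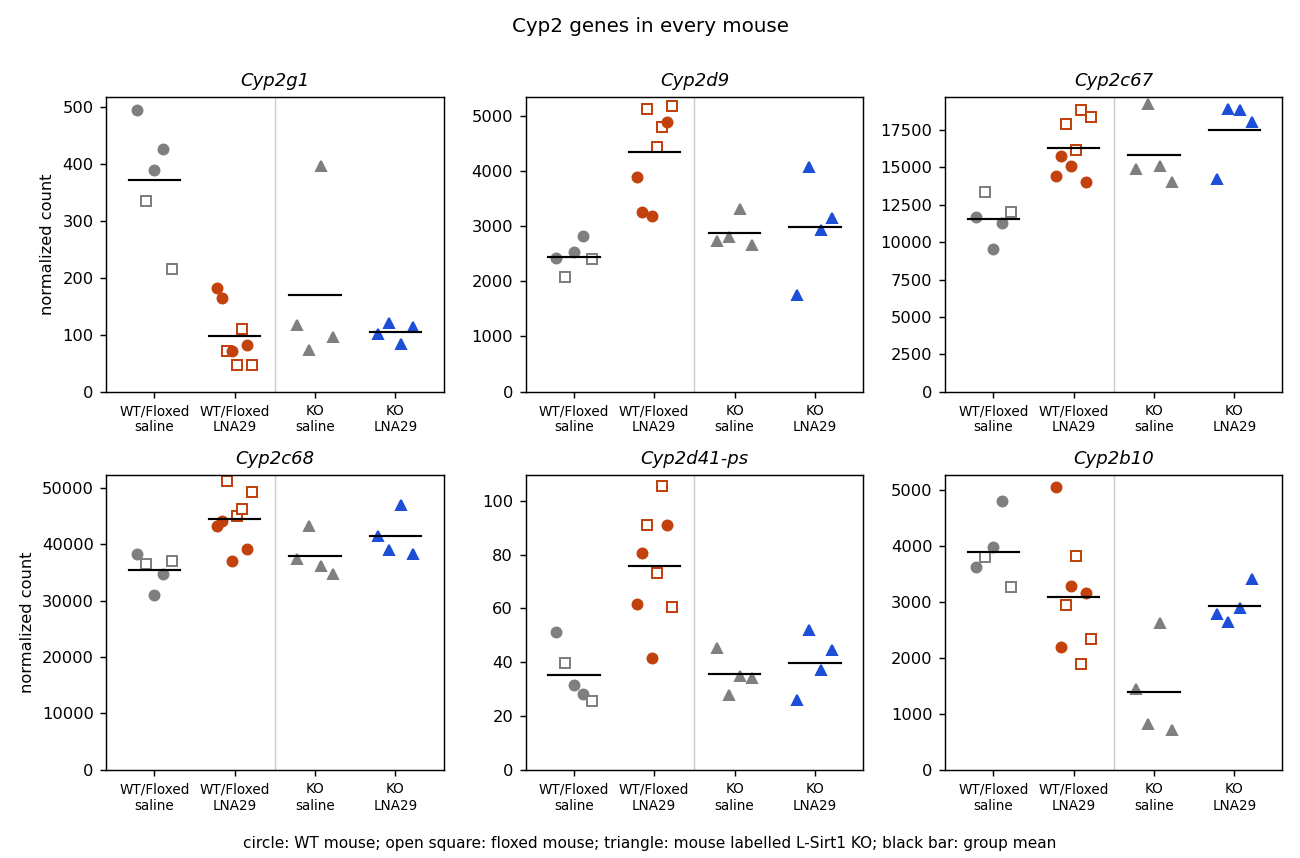
Normalized counts (linear axis from 0) of Cyp2g1, Cyp2d9, Cyp2c67, Cyp2c68, Cyp2d41-ps and Cyp2b10 in the 4 mouse groups, with 1 point per mouse and the group mean as a bar. Cyp2g1 is at 46.8 to 182.7 in WT/Floxed mice with LNA29 and at 216.0 to 495.9 with saline, and Cyp2b10 is at 2634 to 3412 in L-Sirt1 KO mice with LNA29 and at 704.5 to 2617 with saline.

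Of the genes that work with the P450 enzymes, the electron donors were lower where they were called. Cyb5b and Cyb5r3 fell by 0.33 and by 0.37 (adjusted p = 0.117 for both), 2 of the 5 genes listed as electron donors, while Por differed by 0.15 (adjusted p = 0.607). That list also holds the heme-binding Pgrmc1. In heme metabolism 1 of 10 genes rose (the biliverdin reductase Blvrb, 0.42, adjusted p = 0.116) and 1 fell (Uros, -0.33, adjusted p = 0.15). The microsomal epoxide hydrolase Ephx1, which acts on P450 products, rose by 0.51 (adjusted p = 0.0748). Of the 13 receptors and factors, 0 were called by limma and 0 had an unadjusted p under 0.05, and of the 8 genes of the growth hormone axis 0 were called and 3 had one. Of 9 female-predominant members Cyp3a44 alone was called, lower, and of 6 male-predominant genes Cyp2d9 and the urinary protein gene Mup20 (0.59, adjusted p = 0.079) were called, both higher. Of the marker lists, 2 of 4 periportal markers were called lower (Hal -0.38, Gls2 -0.67), with the 4 summed at 57440 to 86580 with LNA29 and at 76020 to 94220 with saline, 1 of 4 endothelial markers was lower (Lyve1 -0.51), with the list summed at 4158 to 7464 and at 5002 to 7248, and 1 of 5 hepatocyte markers was higher (Apoa1 0.51). Their part in the P450 values was not tested.

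The second comparison asked for the same response in mice labelled L-Sirt1 KO, 4 against 4. No member met the 4 criteria by limma, where 1.19% of all genes met them in the higher and 0.68% in the lower direction. An unadjusted p under 0.05 was reached by 15 of 49 members (30.6%, 11 higher and 4 lower) against 11.2% of all genes, and the groups did not overlap for 3 members (6.12%) against 6.95%, a share close to the background. The lowest adjusted p was 0.203. The median difference was 0.12, and without saline replicate 4 it was 0.041.

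Here the female-predominant Cyp3a genes had differences above 0. Cyp3a41a was at 15914, 4424, 9386 and 3549 normalized counts with LNA29 and at 490.3, 219.6, 1661 and 7287 with saline, a difference of 2.70 (95% interval 0.57 to 4.83, adjusted p = 0.326). Cyp3a44 was at 5139, 3358, 4498 and 2395 with LNA29 and at 1738, 1692, 1419.6 and 3063 with saline, a difference of 0.97 (SE 0.28, adjusted p = 0.234). In both genes saline replicate 4 was the high saline library and overlapped with the LNA29 group. Cyp3a16, Cyp3a63-ps and Cyp3a41b differed by 3.29, 2.54 and 2.35 (adjusted p = 0.3, 0.355 and 0.319), and the sum of Cyp3a41a and Cyp3a41b by 2.69. Without saline replicate 4, Cyp3a41a (3.62, adjusted p = 0.139), Cyp3a44 (1.2, adjusted p = 0.144) and Cyp3a41b (3.04, adjusted p = 0.199) met the 4 criteria. Cyp3a11 differed by 0.10 (-0.25 to 0.44).

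Cyp2b10, the CAR target, was the only member that was higher without overlap. It was at 2782, 2634, 2887 and 3412 with LNA29 and at 1440.0, 811.6, 2617 and 704.5 with saline. The groups did not overlap, the difference was 1.27 (SE 0.35) and the adjusted p was 0.216. The exact permutation p was 0.029, the smallest that 4 against 4 allow. Every gene without overlap gets this value here, so it adds nothing to the lack of overlap. Without saline replicate 3 it was called (1.64, adjusted p = 0.0316). Cyp2d40 (-0.33, adjusted p = 0.203) and Cyp2e1 (-0.27, adjusted p = 0.332) were the other 2 members without overlap, both lower. Cyp2e1 was at 292269, 256996, 237921 and 265689 with LNA29 and at 297476, 314688, 328893 and 327632 with saline. Cyp1a1 and Cyp1a2 differed by 0.68 and 0.62 (adjusted p = 0.423 and 0.366).

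Other measures moved with treatment in these 8 livers. A clock index, the mean log2 count of Dbp, Nr1d1, Per3 and Tef minus that of Arntl, Npas2 and Clock, was -2.25 to -1.29 with LNA29 and -1.11 to 3.56 with saline, so the groups did not overlap, and saline replicate 3 had 7449 normalized counts of Dbp against 48.5 to 86.6 in the LNA29 group. With this index as a covariate, Cyp2b10 was called (1.94, adjusted p = 0.0829). Because the index did not overlap between the groups, that fit cannot tell the clock and LNA29 apart. Of 6 macrophage markers Clec4f was called (-0.29, adjusted p = 0.189) and 4 had an unadjusted p under 0.05, all lower, with the list summed at 10100 to 13090 with LNA29 and at 12710 to 14850 with saline. The endothelial marker Lyve1 fell by 1.17 (adjusted p = 0.115). The part of these cell markers in the P450 values was not tested. Among the partner genes, 1 of 13 receptors and factors was called, Cebpa, which fell by 0.49 (adjusted p = 0.181). Of 5 electron donors, 10 heme genes and 8 growth hormone genes 0 were called, with 0, 2 and 1 of them at an unadjusted p under 0.05. Of 5 tested male-predominant genes Hsd3b5 alone was called, higher by 2.55 (adjusted p = 0.148). The median difference of these 5 was 0.008, and the list of 6 was summed at 5182 to 14510 with LNA29 and at 6932 to 10620 with saline. Of 9 female-predominant members 0 were called and 5 had an unadjusted p under 0.05, 4 higher and 1 lower.

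Whether the response itself differed between the genotypes was tested as an interaction over 15601 genes. Of the 49 members 1 was called at an adjusted p under 0.2, against 0.0449% of all genes. This was Cyp3a44, whose difference was -1.63 in WT/Floxed and 0.97 in L-Sirt1 KO mice, so that the responses differed by -2.59 (SE 0.49, adjusted p = 0.144). It lost this call without WT/Floxed saline replicates 3 or 5, L-Sirt1 KO LNA29 replicates 2, 3 or 4, or L-Sirt1 KO saline replicate 2, which left 0 members called, and 5 were called without WT/Floxed LNA29 replicate 1. A p under 0.05 was reached by 13 members (3 with the higher and 10 with the lower response in WT/Floxed mice) against 9.14% of all genes. Among them Cyp2b10 differed by -1.66 (adjusted p = 0.231), Cyp2d9 by 0.82 (adjusted p = 0.331), Cyp3a41a by -5.36 (adjusted p = 0.345) and Cyp2g1 by -1.67 (adjusted p = 0.371). The sign of the response was opposite for 20 members and the same for 29.

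The floxed mice were the littermates and age-mates of the L-Sirt1 KO mice, so the interaction was also computed with the floxed mice alone. Then 3 of 49 members were called, where 0.32% of all genes were, namely Cyp3a41b (-6.56, adjusted p = 0.129), Cyp3a44 (-3.22, adjusted p = 0.129) and Cyp3a16 (-7.27, adjusted p = 0.189). Cyp3a41a missed the limit (-7.32, adjusted p = 0.201 by limma). Because the split of reads between Cyp3a41a and Cyp3a41b is uncertain and their sum was not fitted, the call of Cyp3a41b rests on that split. The levels behind these values were set apart already with saline. Cyp3a41a was at 53351 and 64868 in the 2 saline-treated floxed mice and at 219.6 to 7287 in the 4 saline-treated L-Sirt1 KO mice, and Cyp3a16 at 1673 and 1741 against 22.3 to 225.5. With LNA29 the same genes stood at 312.0 to 11925 and 3549 to 15914 (Cyp3a41a), and at 29.4 to 369.3 and 120.6 to 4067 (Cyp3a16), which overlapped. The tables were normalized separately and these levels were not tested across them; the median ratio of L-Sirt1 KO to WT/Floxed means over 15601 genes was 1.02.

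The third comparison set obese Zucker Fatty rats against lean ones. Most P450 genes of families 1 to 3 were lower in ZFR. Cyp3a18, Cyp2c11, Cyp3a23/3a1, Cyp1a2, Cyp2d1, Cyp2c13, Cyp2f4, Cyp2d2 and Cyp2c23 fell, by 1.31-fold to 31.7-fold, and Cyp2c22 rose by 2.84-fold. At an adjusted p under 0.05, these were 9 of 23 members in the lower and 1 in the higher direction, against 2.46% and 1.8% of all tested genes. An unadjusted p under 0.05 was reached by 19 members (82.6%) against 16.6% of all genes, and the groups did not overlap for 15 (65.2%, 12 lower and 3 higher) against 14.5%. The median difference was -0.66 over the members and 0.07 over all genes.

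**Figure D4:**
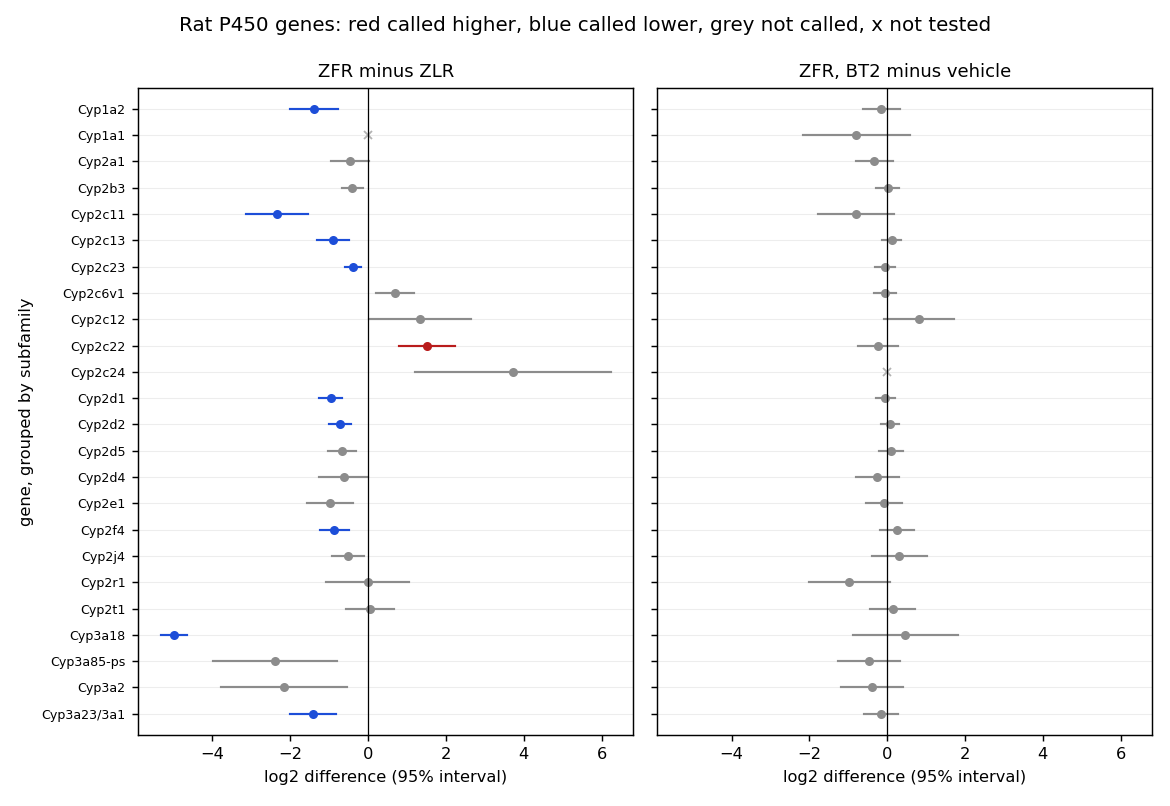
Log2 difference of the normalized count of each tested rat member between ZFR and ZLR and between BT2 and vehicle (4 against 4 rats in each), with its 95% interval from limma. Blue members were called lower, red ones higher, grey ones not called, and a cross marks a member under the minimum mean. ZFR against ZLR shows 9 blue members and 1 red, and BT2 against vehicle 0 coloured ones.

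Cyp3a18, a steroid-oxidizing Cyp3a gene, had the largest difference. It was at 24.2, 31.4, 26.0 and 19.97 normalized counts in the ZFR and at 931.8, 812.6, 744.1 and 824.8 in the ZLR. The ranges were far apart, with a difference of -4.99 (SE 0.15, adjusted p = 2.97e-07), and the highest adjusted p in the 8 fits without 1 rat was 8.19e-06. Cyp3a23/3a1, the PXR-induced member, was at 541.1, 935.4, 1327 and 985.2 in ZFR and at 3091, 2182, 1784 and 2775 in ZLR (-1.41, SE 0.26, adjusted p = 0.0155), and fell as well. Cyp3a2 and the pseudogene Cyp3a85-ps differed by -2.17 and -2.39 with overlap (adjusted p = 0.152 and 0.109). The 2 entries named Cyp3a9 went opposite ways, 0.89 and -1.60 (adjusted p = 0.208 and 0.176), and were not tested as members.

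Cyp2c11, the male-specific steroid hydroxylase that is the standard readout of pulsatile growth hormone in rats, was at 461.4, 654.2, 1797 and 566.2 in ZFR and at 4209.7, 3474, 4140.0 and 3289 in ZLR. All ZFR lay below all ZLR, with ZFR replicate 3 the highest of its group, and the difference was -2.33 (SE 0.36, adjusted p = 0.0059). Cyp2c13, another male-predominant gene, differed by -0.90 (SE 0.18, adjusted p = 0.0229) without overlap. Cyp2c22, also listed as male-predominant, was the only called rise, at 2604, 3223, 2091 and 1650.4 in ZFR and at 1291, 490.7, 1138 and 616.1 in ZLR (1.51, SE 0.32, adjusted p = 0.0293). The female-specific Cyp2c12 was at 52.9, 188.3, 48.0 and 87.1 in ZFR and at 12.0, 50.3, 21.1 and 73.1 in ZLR, a difference of 1.33 with overlap (adjusted p = 0.294). Cyp2c24 was at 3.70 to 73.0 in ZFR and at 1.69, 1.34, 0 and 0 in ZLR, where the 2 values of 0 come from libraries in which 1 read is worth over 10, and no fold is given. Cyp2c6v1 was higher by 0.69 without overlap (adjusted p = 0.123).

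Cyp1a2 was at 188.1, 117.7, 96.1 and 203.8 in ZFR and at 463.0, 463.2, 252.8 and 386.4 in ZLR, a difference of -1.39 (SE 0.28, adjusted p = 0.0209). The debrisoquine hydroxylase gene Cyp2d1 and its relative Cyp2d2 differed by -0.96 (adjusted p = 0.00338) and -0.73 (adjusted p = 0.00978), both without overlap, and Cyp2d5 by -0.66 (adjusted p = 0.0532). Cyp2f4 fell by 0.86 (adjusted p = 0.0162) and the arachidonate epoxygenase Cyp2c23 by 0.39 (adjusted p = 0.0498). Cyp2e1 was lower in all 4 ZFR (2068 to 4054 against 4537 to 9528), a difference of -0.97 (adjusted p = 0.0802). Cyp2r1 differed by -0.01 (-1.09 to 1.06), Cyp2a1 by -0.46 (adjusted p = 0.336) and Cyp2b3 by -0.41 (adjusted p = 0.113).

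**Figure D5:**
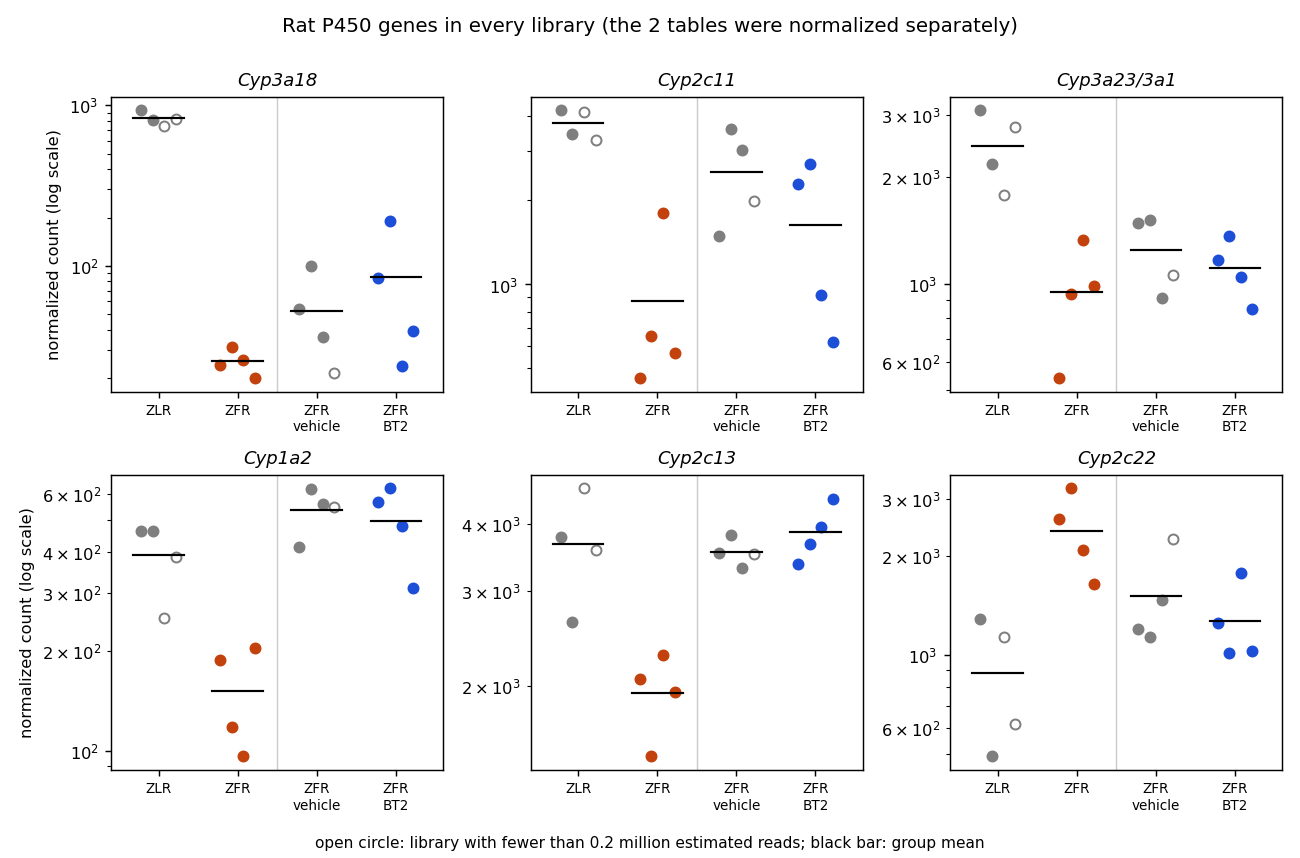
Normalized counts (log axis) of Cyp3a18, Cyp2c11, Cyp3a23/3a1, Cyp1a2, Cyp2c13 and Cyp2c22 in the 4 rat groups, 1 point per rat, with open circles for libraries under 0.2 M estimated reads and bars for means. Cyp3a18 stands at 19.97 to 31.4 in ZFR against 744.1 to 931.8 in ZLR, and at 21.5 to 191.1 in the younger ZFR of the BT2 arm, which were normalized in another table.

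The calls differed in how far they rested on single rats. Cyp3a18, Cyp2c11, Cyp2d1, Cyp2d2 and Cyp3a23/3a1 remained called in all 8 fits without 1 rat. Cyp2f4 lost its call without ZFR replicates 2 or 3 (adjusted p up to 0.0558), Cyp1a2 without ZFR replicates 2 or 3 or ZLR replicates 1 or 2 (up to 0.0699), Cyp2c13 without ZFR replicates 1, 2 or 4 or ZLR replicates 1 or 4 (up to 0.068), Cyp2c22 without ZFR replicates 1, 2 or 3 or ZLR replicates 2 or 4 (up to 0.0909) and Cyp2c23 in 7 of the 8 fits (up to 0.148), all but that without ZLR replicate 3. Without the 2 ZLR libraries under 0.2 M reads, a choice made after the data were seen, Cyp2c13 was not called (-0.71, adjusted p = 0.0819) and Cyp2e1 was (-1.28, adjusted p = 0.0414). All 10 called members had the same sign in both flow cells, as had 23 and 21 of all 23 members. The flow cells are parts of the same libraries, so this is not separate evidence.

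Genes around the P450 system differed between ZFR and ZLR as well. Of 7 tested genes of the growth hormone axis, the STAT5 targets Socs2 and Cish fell, at 4.67 to 10.97 against 39.7 to 198.4 (-3.91, adjusted p = 0.00211) and at 7.06 to 44.7 against 63.2 to 200.8 (-2.73, adjusted p = 0.0223). The growth hormone receptor Ghr differed by -0.10 (adjusted p = 0.7). Of 12 receptors and factors CAR (Nr1i3) fell by 1.63 (adjusted p = 0.0465), while PXR (Nr1i2) differed by 0.28 (adjusted p = 0.339). Of the 5 genes listed as electron donors, Cyb5a (-0.65, adjusted p = 0.0434) and the heme-binding Pgrmc1 (-0.63, adjusted p = 0.00346) fell, and Por differed by 0.90 (adjusted p = 0.0508). None of 10 heme genes was called by limma and 1 had an unadjusted p under 0.05, and of 2 epoxide hydrolases 0 were called and 0 reached it.

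Clock genes and zonation markers also moved with obesity in these rats. The clock index was 1.91 to 4.02 in ZFR and -3.86 to -0.47 in ZLR, without overlap, and 6 of 11 clock genes were called (Dbp, Tef, Per2 and Per3 higher, Arntl and Npas2 lower). With the index as a covariate, Cyp3a18 alone stayed called (-5.33, adjusted p = 0.00477), and Cyp2c11 differed by -3.45 (adjusted p = 0.885). Of the pericentral markers Oat fell (-1.41, 1 of 2 tested), with the list summed at 426.2 to 782.4 in ZFR and at 791.2 to 1362 in ZLR, and of the 4 periportal markers Hal fell (-1.32), with sums of 1336 to 1552 and of 1827 to 2048. Of 5 hepatocyte markers Apob and Ttr fell (-0.39 and -0.43) and Tf rose (0.44), of 3 endothelial markers Stab2 rose (1.16), with sums of 226.5 to 342.7 and of 280.5 to 304.5, and the list of stellate cells, which held no called gene, was at 188.5 to 290.0 and at 121.1 to 190.1. The 1 tested acinar marker Cela1 fell (-2.18), with sums of 4.18 to 8.24 and of 15.03 to 41.8. The part of these markers in the P450 values was not tested, and the clock index and the genotype cannot be told apart.

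The fourth comparison asked what BT2 changed in ZFR. No member was called (adjusted p from 0.898 to 0.994 by limma), as was 0% of all genes, and 0 of 23 members had an unadjusted p under 0.05, against 3.95% of all genes. The median difference was -0.07. The groups did not overlap for 1 member, against 2.96% of all genes. This was Cyp2r1, at 7.12, 8.01, 8.03 and 5.44 with BT2 and at 10.97, 13.9, 15.6 and 20.6 with vehicle (-0.98, adjusted p = 0.898), in libraries where 1 read is worth between 0.224 and 10.3 normalized counts.

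The 95% intervals of the BT2 differences were narrow for some members and wide for others. Cyp2d1 differed by -0.05 (-0.29 to 0.19), Cyp2c13 by 0.12 (-0.13 to 0.36), Cyp2e1 by -0.09 (-0.56 to 0.38) and Cyp1a2 by -0.15 (-0.62 to 0.33). The members that differed most between ZFR and ZLR varied more here. Cyp2c11 was at 2288, 2709, 918.5 and 620.0 with BT2 and at 1495, 3615, 3023 and 1993 with vehicle, a difference of -0.80 (-1.79 to 0.19). Cyp3a18 was at 84.3, 191.1, 23.8 and 39.5 with BT2 and at 53.5, 99.5, 36.2 and 21.5 with vehicle (0.46, -0.89 to 1.82), and Cyp2c12 was higher by 0.82 (-0.08 to 1.71). The clock index was -1.84 to 0.99 with BT2 and -0.28 to 3.66 with vehicle, which overlapped. The fixed lists of partner genes, receptors and markers held no called gene, with 1 of 5 electron donors, 2 of 10 heme genes, 2 of 12 receptors and factors and 0 of 7 growth hormone genes at an unadjusted p under 0.05.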

How the data were processed

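The authors aligned single-end reads of polyA libraries to mm10 (mouse) or rn6 (rat) with STAR v2.5.3a, estimated counts with Salmon v0.6.0 and normalized them with DESeq2. The deposited values are normalized counts, a signal on a linear scale, in 4 tables that were each normalized on their own. Whole reads could not be recovered (67.5% to 89.5% of low values in a library were whole within 0.01 reads), so limma 3.58.1 in R 4.3.3 (lmFit, eBayes with trend) was used on log2(normalized count + 1), with a pseudocount of 1, in place of a count model. Entries without a gene name (0.0144% and 0.0134% of the counts in mice, 0.0461% and 0.0394% in rats) or with a repeated name were left out, genes with a mean under 10 were not tested, and p-values were adjusted by Benjamini-Hochberg over all genes tested. An exact permutation test (two-sided) over the libraries was added for single genes, and cannot give less than 0.029 for 4 against 4. Depth was estimated as the column sum over the most frequent value above 0, and covers counting error only. Every column matched a sample, and each library carries its own animal number in the labels.

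Named are up to 6 called members with the largest rise and 6 with the largest fall in each comparison, fixed lists of prototype and sex-biased P450 genes, and called genes of partner and marker lists. Other members, and the partner genes Por, Ghr and Nr1i2 where not called, were named after their values were seen. The members and lists were chosen with earlier results of these data known. The alternatives tried were TMM scaling, a pseudocount of 10, no minimum mean, sample quality weights, flow cell, replicate block, WT or floxed background, clock index, repeated names kept, other call limits, precision weights, shallow libraries left out, and each library left out in turn. Promoters, miRNAs and genes come from RefSeq GRCm38.p6 and GENCODE vM21 on GRCm38, which is mm10. Only the main fit of each comparison was run on simulated data with known changes. The interactions and the alternatives were not simulated. Scripts used Python 3.11.15, pandas 2.3.3, matplotlib 3.10.9 and data.table (version 1.17.8).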

Additional observations from a re-analysis of the deposited data

Results flagged for a closer look

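In 7 of 118 member and group combinations of 4 to 8 libraries, 1 library stood apart from the others by Dixon's test. Chance gives about 5% for normally distributed values, so the number flagged is close to that. The test was run on counts without a log, and all 7 flagged libraries were the highest of their group. Cyp1a1 was at 363.7 normalized counts in 1 LNA29-treated WT/Floxed mouse, with the next at 153.9, and Cyp2r1 at 1321 in 1 such mouse, with the next at 936.7. Cyp3a41a was at 95490 in saline-treated WT/Floxed mouse 1, with the next at 65220. Cyp2g1 was at 396.3 in saline-treated L-Sirt1 KO mouse 3, with the next at 117.5. The remaining L-Sirt1 KO mice of both treatments were at 73.2 to 120.1. Cyp2c11 was at 1797 in ZFR 3, with the next at 654.2, Cyp2e1 at 9528 in ZLR 1, with the next at 5060, and Cyp2c12 at 131.6 in vehicle-treated ZFR 1, with the next at 57.53. For Cyp3a44 the response to LNA29 differed by genotype, WT/Floxed minus L-Sirt1 KO, by -2.59 on the log2 scale (adjusted p = 0.144 by limma's interaction term, 8 and 5 against 4 and 4 mice).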

How the results depend on the processing

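Under the alternatives tried, 0 differences of named members changed sign with a call. In WT/Floxed mice, 5 higher and 2 lower members became 8 and 9 with sample quality weights, 5 were lower with the background as a covariate, 1 was higher in WT mice alone and 7 were lower in floxed mice alone, and leaving out 1 mouse gave 4 to 8 higher and 2 to 9 lower. In L-Sirt1 KO mice, 0 and 0 became 6 and 3 with quality weights, 1 higher with the clock index (median 0.22) and 1 lower with a pseudocount of 10 or with TMM scaling (Cyp2d40 in both); leaving out 1 mouse gave 0 to 3 higher and medians of 0.041 to 0.17. In ZFR against ZLR, 1 higher and 9 lower became 0 and 5 without a minimum mean (median -0.39), 2 and 17 with quality weights, 0 and 1 with the clock index, 2 and 15 with the 4 mouse criteria, and 0 and 3 with the libraries above 5 M reads alone, where the lone ZFR is assumed to vary like the ZLR; leaving out 1 rat gave 0 to 1 higher, 5 to 9 lower (5 without ZFR replicate 2) and medians of -0.79 to -0.51. The interaction called 1 member, 3 with floxed mice alone, and 0 to 5 without 1 mouse. With the replicate number as a block, 1 member was higher in WT/Floxed mice, 0 were higher in ZFR and 0 were called in the interaction, and the other counts stayed within 1.5 times; same-numbered libraries correlated at -0.281 to 0.241 in their deviations from the group means and did not deviate together in every pair, so the numbers were not taken as pairs. The counts in BT2 stayed at 0 under each alternative, and a fit of its libraries above 5 M reads was not run because no BT2 library is that deep. The cause of these shifts was not tested. Apart from the interaction with floxed mice alone, calls over all genes were not counted under the alternatives. Whether the shifts are particular to the members is therefore not known. Depth limits the rat values, since 12 of 16 libraries were under 5 M reads.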
